A study of Homo sapiens with 4 samples.

Results

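Semaphorins are guidance ligands, and plexins and neuropilins are their receptors on the cell surface. In a table of 20322 genes, every gene whose symbol names a semaphorin of classes 3 to 7, a plexin or a neuropilin was taken, which gave 31 members: 20 semaphorins, 9 plexins and 2 neuropilins. Their levels were compared between HT-29 cells labelled null and IMP1-OE, named for the RNA-binding protein IMP1. These data do not give the level of IMP1 protein. HT-29 is a line of human colorectal adenocarcinoma cells. Both groups had IMP1 (gene IGF2BP1) targeted by CRISPR/Cas9, were kept in puromycin and are labelled as derived from a liver metastasis in a mouse. The null group carried an empty PiggyBac vector (PB*-empty, 2 libraries), and the IMP1-OE group carried one with FLAG-tagged IMP1 and a short UTR (PB*-FLAG-IMP1-short UTR, 2 libraries). Nothing in the sources used here states whether the replicates were separate clones or cultures, so p-values describe the spread between these libraries, which may be technical.

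Class 3 semaphorins are secreted, classes 4 to 6 span the membrane and SEMA7A is held there by a lipid anchor. Most class 3 ligands bind a neuropilin, which has little signalling capacity of its own and pairs with a class A or D plexin that carries the signal. SEMA3E is the exception, since it binds plexin D1 directly. Class 4 ligands mainly use class B plexins, SEMA4A can also bind plexin D1, and SEMA7A uses plexin C1 and β1 integrins. The inner part of a plexin switches off small GTPases of the Rap and R-Ras kind. These signals guide axons and vessels in development and act on adhesion and migration of epithelial and tumour cells.

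Library totals ran from 9343429 to 10594813 estimated counts, and members together took 0.119% to 0.165% of a library. IGF2BP1 counts were 37 and 16 in null and 71 and 112 in IMP1-OE, an order that follows the labels, with a log2 fold change of 1.69 and an edgeR adjusted p of 0.453. Among epithelial markers, KRT8, KRT18, KRT19 and EPCAM were abundant. CDH1 (4921 to 7910 counts), KRT20 (3143 to 5980 counts) and VIL1 (977 to 2167 counts) were also detected in every library. The intestinal factor gene CDX1 was at 0 in 3 libraries and CDX2 ranged from 0 to 47 counts. CEACAM5 had 606 and 35 counts in null and 67 and 107 in IMP1-OE. The libraries also stood apart in interferon-stimulated genes, which touches what follows. Summed over 12 interferon-stimulated genes, null replicate 2 had 5783 CPM (counts scaled to library size with TMM correction), null replicate 1 had 632 CPM, and the IMP1-OE libraries had 440 and 608 CPM. All 12 were lower in IMP1-OE at an unadjusted edgeR p under 0.05, where 5.84% of all genes tested were, and 0 had an adjusted p under 0.05. IMP1-OE lay below both null libraries for 7 of them, against 21.9% of all genes tested.

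Of the 31 members, 19 reached 20 counts in 2 or more libraries, where 55.6% of all genes in the table did, and 21 passed edgeR's low-count filter and were tested. The 10 others had at most 9 counts in any library. NRP2, a neuropilin, had 0 and 0 counts in null and 3 and 2 in IMP1-OE. PLXNC1, the SEMA7A receptor, had at most 1 count, and PLXNA4 had 1 and 5 counts in null and 8 and 7 in IMP1-OE. SEMA3D was at 0 in all 4 libraries, which allows up to 3 counts in each. SEMA3G stood between 0 and 9 counts, SEMA6C between 2 and 8, SEMA5A between 0 and 5, SEMA5B between 0 and 4, SEMA6A between 0 and 2 and SEMA6D between 0 and 1. At these depths no difference in these genes was detectable.

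Per transcript length (TPM, counts divided by effective length and scaled to a common sum per library), the plexin PLXNB2 was the most abundant member, at 103 to 168 TPM over the 4 libraries, and the ligand SEMA4B came next at 79.2 to 94.9 TPM. Their ranges did not overlap, nor did that of SEMA4B with the third, SEMA3C, at 50.4 to 75.8 TPM. SEMA3A (18.4 to 59.6 TPM), SEMA3B (26.0 to 45.9 TPM), PLXNA1 (16.9 to 43.2 TPM), PLXNB1 (16.7 to 33.7 TPM) and SEMA4D (17.7 to 20.7 TPM) followed with overlapping ranges. NRP1, the detected neuropilin, stood at 6.22 to 10.8 TPM. SEMA7A was at 0.243 to 1.32 TPM.

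**Figure D1:**
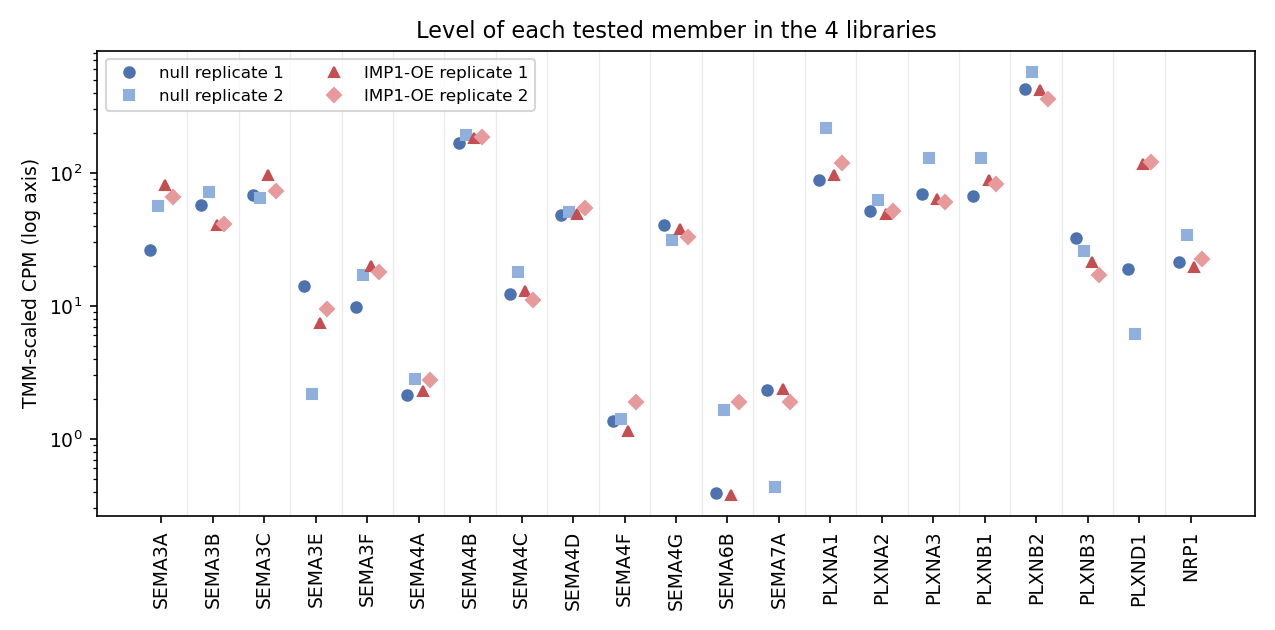
Level of each tested member in each library, in TMM-scaled CPM on a log axis, for null (circles and squares) and IMP1-OE (triangles and diamonds). PLXND1 is the member with the widest gap between groups, at 19.0 and 6.13 CPM in null and 116 and 122 CPM in IMP1-OE, while SEMA3E and SEMA7A are set apart by null replicate 2.

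PLXND1 (ENSG00000004399.13), the gene of plexin D1, which is best known from blood vessel patterning, was the member with the largest difference. Null libraries held 194 and 56 counts of it, IMP1-OE libraries 1224 and 1279. On the CPM scale these are 19.0 and 6.13 against 116 and 122, so the groups did not overlap, and null replicate 2 was below null replicate 1 by a log2 ratio of -1.63. The group means were 12.6 ± 9.08 CPM in null and 119 ± 3.60 CPM in IMP1-OE (SD, n = 2 libraries each, as for all means here), a 9.44-fold difference. The log2 fold change was 3.24 (SE 0.51, 95% interval 1.99 to 4.49). Its unadjusted edgeR p of 0.000741 ranked 26 among 12113 genes tested, and its log2 fold change ranked 32 from the top. The edgeR adjusted p of 0.338 did not pass 0.05, a threshold that 0% of the tested genes passed. In the authors' deposited table PLXND1 has a log2 fold change of 3.11 and an adjusted p of 2.73e-09. It is the only called member there of 21 that have an adjusted p, and 1.28% of all genes with an adjusted p are called. Leaving out null replicate 1 gave an edgeR log2 fold change of 4.28, and leaving out null replicate 2 gave 2.65. Without IMP1-OE replicate 1 it was 3.27, and without IMP1-OE replicate 2 it was 3.22. A fit that leaves 1 library in a group takes that group's spread from the other group, so its p is not given. Over the other edgeR settings and limma-voom on all 4 libraries, the adjusted p ran from 0.0374 (no low-count filter) to 0.330 (the gene ARSI left out). By DESeq2 it was 8.17e-09 with all libraries. In bulk RNA, more cells with the transcript and more transcript per cell cannot be told apart.

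Markers of other cells that express plexin D1 were read beside it. Of 8 endothelial markers 4 were tested, 0 had an unadjusted p under 0.05, and their summed level was 36.3 and 44.5 CPM in null and 37.1 and 27.8 CPM in IMP1-OE. Most of that level came from ESAM, with 282 and 357 counts in null and 301 and 237 in IMP1-OE. PECAM1 had 21 to 33 counts in a library and EGFL7 had 4 to 42. VWF had at most 2 counts in a library and CDH5 had 1 and 1 in null and 0 and 20 in IMP1-OE. Of 6 neuronal markers, RBFOX3 and STMN2 were at 0 in all 4 libraries. The summed neuronal level was 60.9 and 110 CPM in null and 151 and 128 CPM in IMP1-OE, nearly all of it from NEFL and TUBB3. TUBB3, a tubulin gene also active in carcinoma cells, was at 23.7 and 9.63 CPM in null and 34.2 and 46.7 CPM in IMP1-OE. TUBB3 was higher at an unadjusted edgeR p under 0.05 (adjusted p 0.456). Of 8 leukocyte markers 3 were tested, and all 3 had lower fitted means in IMP1-OE. The summed leukocyte level was 2834 and 1446 CPM in null and 1912 and 1758 CPM in IMP1-OE, mostly from LYZ, with 12591 to 28605 counts. CD14 had 192 and 478 counts in null and 157 and 93 in IMP1-OE (unadjusted edgeR p under 0.05, adjusted p 0.455), CD68 was also lower without overlap, and CD3E and FCER1G were at 0 in all 4 libraries. The summed level of 8 fibroblast markers was 15.6 and 15.8 CPM in null and 7.90 and 4.18 CPM in IMP1-OE, without overlap. Different genes made up the sums of the null libraries. LUM had 74 and 5 counts in null and 9 and 6 in IMP1-OE, and COL1A1 had 35 and 12 against 22 and 7. COL3A1 had 24 and 3 counts in null and 9 and 6 in IMP1-OE. LUM, COL1A1 and COL3A1 each overlapped between groups. ACTA2 had 25 and 121 counts in null and 17 and 22 in IMP1-OE, and PDGFRA was at 0 in all 4 libraries. The part of these markers in the PLXND1 difference was not tested.

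The place of PLXND1 within its family also differed between the groups. Among the 9 plexins ordered by TPM it was number 7 in both null libraries and number 2 in both IMP1-OE libraries. It made up 2.62% and 0.576% of summed plexin TPM in null and 14.2% and 15.9% in IMP1-OE. PLXNB2 was number 1 in all 4, with 64.0% and 58.5% of the sum in null and 55.1% and 50.6% in IMP1-OE. Summed plexin TPM was 187 and 287 in null and 222 and 204 in IMP1-OE, so the sums of the groups overlapped.

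**Figure D2:**
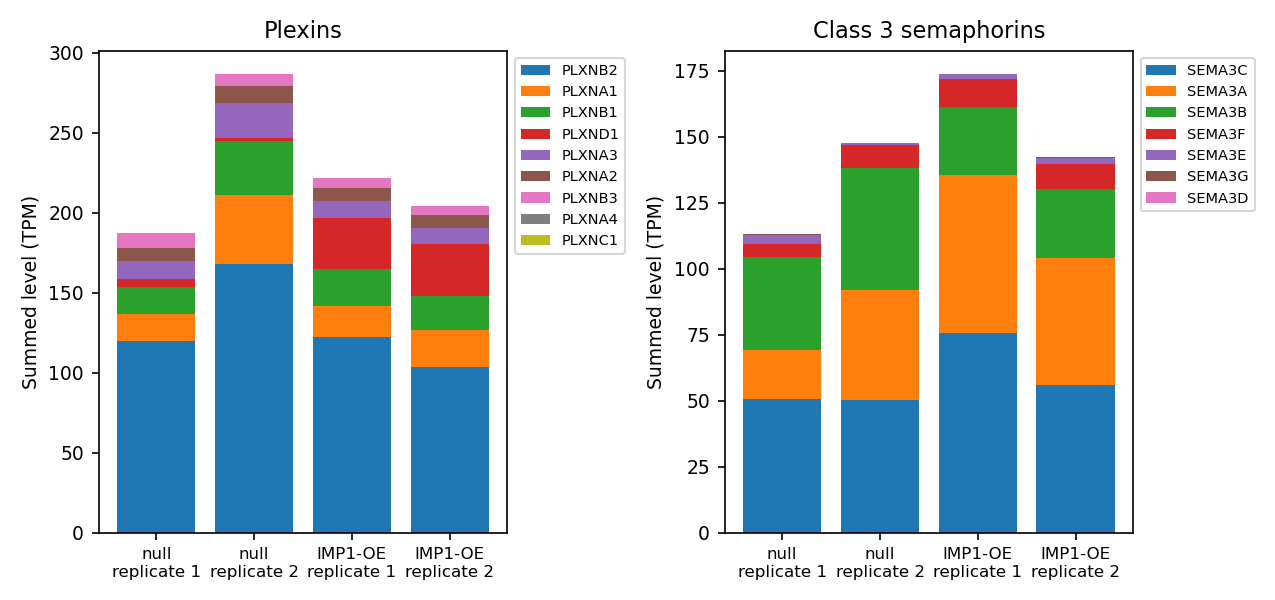
Stacked levels in TPM of the plexins (left) and of the class 3 semaphorins (right) in each library. PLXND1 is a thin band in the null libraries (2.62% and 0.576% of the plexin sum) and a broad one in the IMP1-OE libraries (14.2% and 15.9%), and SEMA3B takes 31.1% of the class 3 sum in both null libraries against 14.9% and 18.3% in IMP1-OE.

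Of the ligands that can bind plexin D1 without a neuropilin, both overlapped between groups. SEMA3E had 145 and 20 counts in null and 78 and 99 in IMP1-OE, so the IMP1-OE libraries lay between the null libraries. Its log2 fold change was 0.0352 (SE 0.80, 95% interval -1.93 to 2.00) by edgeR, with an adjusted p of 0.994. The direction depended on the libraries used, with 1.94 when null replicate 1 was left out, -0.75 when null replicate 2 was and -0.13 when IMP1-OE replicate 2 was. SEMA4A had 22 and 26 counts in null and 24 and 29 in IMP1-OE, with a 95% interval of the log2 fold change from -1.54 to 1.57. Both intervals allow a change of more than 2-fold either way. GIPC1, the gene of an adaptor that binds the tail of plexin D1, was at 121 and 120.0 CPM in null and 114 and 131 CPM in IMP1-OE (log2 fold change 0.0179, 95% interval -0.40 to 0.44).

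All 6 class A and B plexins tested had lower fitted means in IMP1-OE, as had 6292 of the 12113 genes tested. The median difference of the 6 plexins was -0.43 on the log2 scale, and that of all genes tested was -0.0198. None of the 6 had an edgeR adjusted or unadjusted p under 0.05. PLXNA3, a receptor for class 3 signals, was at 69.8 and 130 CPM in null and 63.7 and 60.5 CPM in IMP1-OE, which gave 100.1 ± 42.8 against 62.1 ± 2.27 CPM. The log2 fold change was -0.69 (SE 0.31, 95% interval -1.45 to 0.0745), with an edgeR adjusted p of 0.511. PLXNB3, which can act as a SEMA5A receptor, was at 32.4 and 26.0 CPM in null and 21.2 and 17.1 CPM in IMP1-OE, with a log2 fold change of -0.61 (SE 0.25, 95% interval -1.22 to 0.00107) and an edgeR adjusted p of 0.490. Here the groups did not overlap.

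PLXNB2, the most abundant plexin and a receptor for class 4 ligands, was at 428 and 575 CPM in null and 417 and 358 CPM in IMP1-OE, also without overlap (log2 fold change -0.37, 95% interval -0.88 to 0.14). Its log2 fold change was -0.57 with null replicate 1 left out and -0.14 with null replicate 2 left out. PLXNA1, PLXNB1 and PLXNA2 overlapped between groups. PLXNA1, a partner of neuropilin 1, was at 88.2 and 216 CPM in null and 96.5 and 119 CPM in IMP1-OE. PLXNB1, the SEMA4D receptor, was at 66.9 and 130 CPM in null and 89.0 and 82.0 CPM in IMP1-OE. PLXNA2 was at 51.4 and 62.9 CPM in null and 49.1 and 52.0 CPM in IMP1-OE. Null replicate 2 exceeded null replicate 1 for 5 of the 6 genes, the exception being PLXNB3, and for 50.2% of all genes tested. Without null replicate 2 the log2 fold changes of PLXNA1 and PLXNB1 were 0.29 and 0.35, that of PLXNA3 was -0.17, and that of PLXNB3 was -0.76. Without null replicate 1, which leaves null replicate 2 as the only null library, those of PLXNA1 and PLXNA3 were -1.001 and -1.07. The interferon-stimulated genes were high in the same null library, and their part in the plexin differences was not tested.

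**Figure D3:**
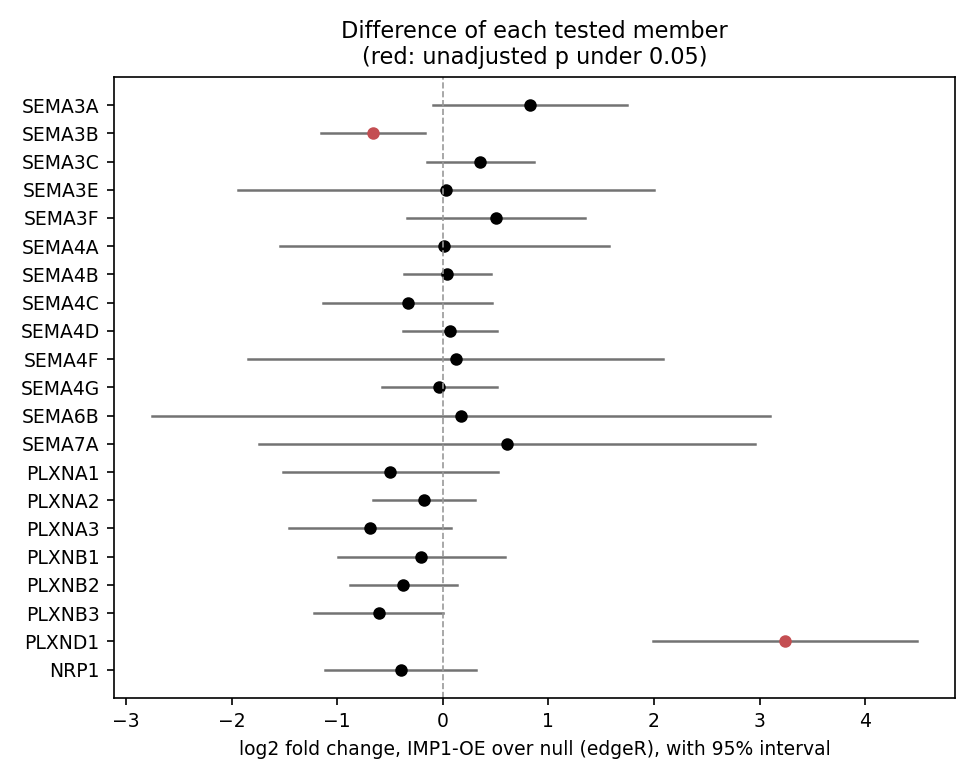
Log2 fold change of each tested member, IMP1-OE over null, as edgeR fitted it, with its 95% interval from the fitted SE. The intervals of PLXND1 (1.99 to 4.49) and SEMA3B (-1.15 to -0.17) leave out 0, and the other 19 include it.

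Neuropilins were represented by NRP1, the co-receptor of SEMA3A and of VEGF-A. It had 219 and 310 counts in null and 205 and 236 in IMP1-OE. The groups overlapped, at 27.7 ± 8.84 CPM in null and 21.0 ± 2.07 CPM in IMP1-OE, and the log2 fold change was -0.40 (95% interval -1.12 to 0.32). With null replicate 1 left out it was -0.69, and with null replicate 2 left out -0.0305. SEMA3F, whose main partner is neuropilin 2, had 100 to 209 counts in libraries in which NRP2 had at most 3.

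The secreted class 3 ligands gave the other member with an unadjusted edgeR p under 0.05. SEMA3B (ENSG00000012171.20), known as a ligand that restrains tumour growth, had 586 and 655 counts in null and 424 and 434 in IMP1-OE. That is 57.3 and 71.7 CPM against 40.4 and 41.3 CPM, with no overlap, and means of 64.5 ± 10.2 against 40.8 ± 0.640 CPM. SEMA3B was 1.58-fold lower in IMP1-OE, with a log2 fold change of -0.66 (SE 0.20, 95% interval -1.15 to -0.17). The unadjusted edgeR p was 0.0167 and the adjusted p 0.4504, which did not pass. The adjusted p in the authors' deposited table is 0.311. The log2 fold change there is -0.36, on another scale than the -0.66 that DESeq2 gave on the counts used here.

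SEMA3A, the founding repulsive ligand of axons, was higher in IMP1-OE, at 80.6 and 66.2 CPM against 26.1 and 56.6 CPM in null. The groups did not overlap, but null replicate 2 lay nearer to the IMP1-OE libraries than to null replicate 1. The means were 41.3 ± 21.5 CPM in null and 73.4 ± 10.2 CPM in IMP1-OE, with a log2 fold change of 0.83 (SE 0.37, 95% interval -0.0890 to 1.75) and an edgeR adjusted p of 0.511. Leaving out null replicate 1 brought the log2 fold change to 0.38, and leaving out null replicate 2 brought it to 1.49. SEMA3C, a ligand that several carcinomas express, was at 68.0 and 64.9 CPM in null and 97.1 and 73.0 CPM in IMP1-OE (log2 fold change 0.36, 95% interval -0.15 to 0.86). SEMA3F, an anti-angiogenic ligand, was at 9.78 and 17.0 CPM in null and 19.9 and 18.0 CPM in IMP1-OE (log2 fold change 0.50, 95% interval -0.34 to 1.35). Neither had an edgeR adjusted p under 0.05. The log2 ratio of the single null libraries for SEMA3F was 0.79, beside its log2 fold change of 0.50 between groups. For SEMA3F the log2 fold change became 0.16 with null replicate 1 left out and 0.95 with null replicate 2 left out.

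In make-up by TPM, SEMA3C was the leading class 3 ligand in all 4 libraries, with 34.2% to 44.8% of summed class 3 TPM. SEMA3B followed in null with 31.1% in both libraries, and SEMA3A in IMP1-OE with 34.3% and 33.8%. These shares depend on the length of the single transcript listed for each gene, 2415 nt for SEMA3C and 7273 nt for SEMA3E. By CPM, SEMA3B was above SEMA3C in null replicate 2, at 71.7 against 64.9 CPM. SEMA3B and SEMA3F are near neighbours in the RefSeq gene order of GRCh38.p14, with 3 protein-coding genes between them, and SEMA3B was lower and SEMA3F higher in IMP1-OE. SEMA3A lies next to both SEMA3E and SEMA3D in that order, with 0 protein-coding genes between. Of these 3, SEMA3A had 267 and 517 counts in null and 847 and 696 in IMP1-OE, SEMA3E overlapped between groups and SEMA3D was at 0.

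For the 6 class 4 ligands the groups overlapped in each, and the median log2 fold change was 0.0288. SEMA4B, the most abundant semaphorin, was at 167 and 192 CPM in null and 183 and 187 CPM in IMP1-OE, with a 95% interval of the log2 fold change from -0.37 to 0.46. SEMA4D, the ligand of plexin B1 first found on T cells, was at 47.8 and 50.8 CPM in null and 49.3 and 54.1 CPM in IMP1-OE, with an interval from -0.38 to 0.52. SEMA4G was at 40.6 and 31.5 CPM in null and 37.7 and 32.9 CPM in IMP1-OE, with an interval from -0.58 to 0.51. SEMA4C, a plexin B2 ligand, was at 12.2 and 17.8 CPM in null and 12.8 and 11.0 CPM in IMP1-OE, with an interval from -1.13 to 0.47. Its log2 fold change of -0.33 became -0.58 with null replicate 1 left out and -0.0345 with null replicate 2 left out. The intervals of SEMA4B, SEMA4D and SEMA4G leave out a 2-fold change either way, and that of SEMA4C does not. SEMA4F had 14 and 13 counts in null and 12 and 20 in IMP1-OE, with a wide interval from -1.84 to 2.09.

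Of classes 5 to 7, SEMA6B and SEMA7A were tested. SEMA6B had 4 and 15 counts in null and 4 and 20 in IMP1-OE, so within each group the libraries differed by more than 3-fold while the group means were 1.02 ± 0.884 and 1.14 ± 1.08 CPM. SEMA7A, which also acts on immune cells, had 24 and 4 counts in null and 25 and 20 in IMP1-OE. Null replicate 1 was level with the IMP1-OE libraries and null replicate 2 was below them. Its receptor gene PLXNC1 had at most 1 count, while ITGB1, the gene of its integrin receptor chain, had 4600 to 6186 counts.

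Counted over the 21 tested members, 11 had higher and 10 lower fitted means in IMP1-OE, and the median of their log2 fold changes was 0.0138. PLXND1 alone was higher at an unadjusted edgeR p under 0.05, where 4.34% of all genes tested were, and SEMA3B alone was lower, where 5.84% were. Groups did not overlap with IMP1-OE above for 4 members (PLXND1, SEMA3A, SEMA3C and SEMA3F), against 21.3% of all genes tested. IMP1-OE was below in 4 (PLXNA3, PLXNB2, PLXNB3 and SEMA3B), against 21.9%. The members' shares of 19.0% each way are near the background and are no result about the members. The log2 ratio of the null libraries was larger in size than the log2 fold change for 16 of the 21, or 76.2%. That held for 60.1% of all genes tested. A ratio of single libraries varies more than a difference between groups of 2, so the measures are unlike. Null libraries differed 2-fold or more for 6 members, and IMP1-OE libraries for 1, SEMA6B. The share of all genes at that limit was not counted. The median size of the log2 gap between null libraries was 0.545 for the members and 0.398 for all genes tested.

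**Figure D4:**
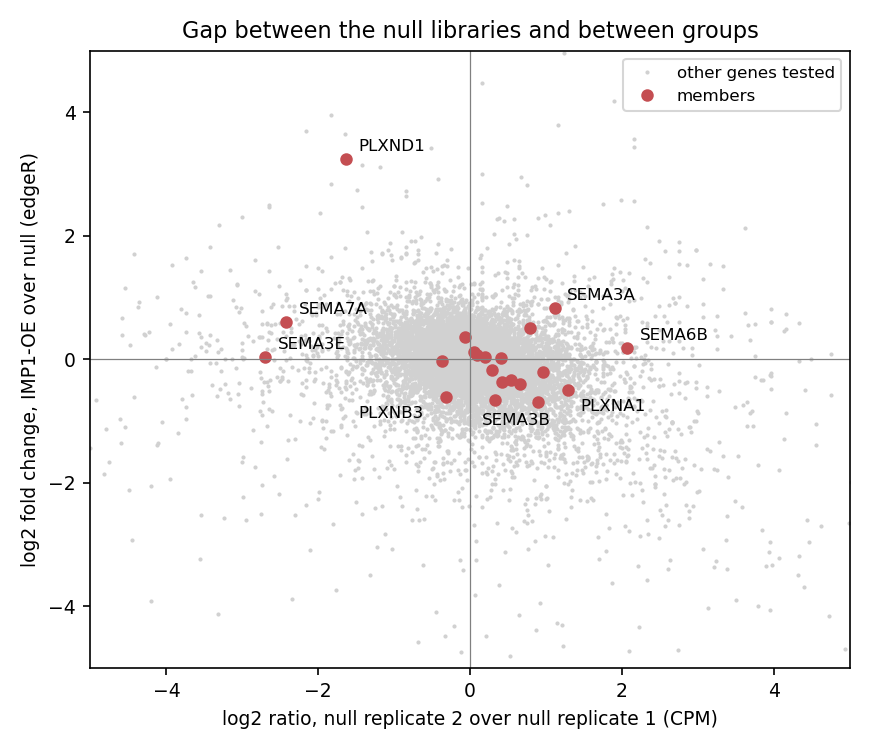
Log2 ratio of null replicate 2 over null replicate 1 (horizontal) against the edgeR log2 fold change of IMP1-OE over null (vertical) for the tested members (red) among 11927 genes within the axes (grey, 48 genes lie outside and 138 with a count of 0 in a null library are not drawn). PLXND1 lies at -1.63 and 3.24, and SEMA3E (-2.70) and SEMA7A (-2.42) have the widest null gaps among the members.

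The other genes of the pathway were read from 3 lists of 53 genes in all: receptor partners, VEGF family ligands of neuropilins, and adaptors and effectors of plexins. Of these, 33 were tested, 16 with higher and 17 with lower fitted means in IMP1-OE (median log2 fold change -0.000717). None passed an edgeR adjusted p of 0.05. At an unadjusted p under 0.05 there were 3 higher, where 4.34% of all genes tested were, and 3 lower, where 5.84% were. IMP1-OE lay above null without overlap for 4 of the 33 (12.1%, against 21.3% of all genes tested) and below for 11 (33.3%, against 21.9%). All 3 higher genes were effectors. FYN, a kinase that phosphorylates class A plexins in SEMA3A signalling, was at 17.7 and 8.54 CPM in null and 54.6 and 42.0 CPM in IMP1-OE (log2 fold change 1.88, SE 0.38, edgeR adjusted p 0.408). MICAL1, an enzyme that binds class A plexins and oxidises actin, was at 24.5 and 20.0 CPM in null and 40.9 and 45.2 CPM in IMP1-OE (log2 fold change 0.95, SE 0.21, edgeR adjusted p 0.433). SH3BP1, a GTPase regulator bound by plexin D1, was at 26.1 and 29.3 CPM in null and 38.5 and 47.5 CPM in IMP1-OE (log2 fold change 0.63, SE 0.21, edgeR adjusted p 0.453).

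On the lower side stood DPYSL2, VEGFA and ERBB2. DPYSL2, the gene of the SEMA3A mediator CRMP2, was at 149 and 381 CPM in null and 87.6 and 77.5 CPM in IMP1-OE (log2 fold change -1.68, SE 0.43, edgeR adjusted p 0.435). VEGFA, whose product competes for neuropilin 1, was at 15.5 and 19.0 CPM in null and 7.04 and 8.94 CPM in IMP1-OE (log2 fold change -1.11, SE 0.32, edgeR adjusted p 0.436). ERBB2, a receptor kinase that associates with plexin B1, was at 135 and 183 CPM in null and 116 and 102 CPM in IMP1-OE (log2 fold change -0.54, SE 0.21, edgeR adjusted p 0.484). These 6 genes, chosen by their p, are among those without overlap. With null replicate 1 left out DPYSL2 had a log2 fold change of -2.21, FYN of 2.50 and MICAL1 of 1.10. With null replicate 2 left out DPYSL2 was at -0.85, FYN at 1.45, MICAL1 at 0.82 and ERBB2 at -0.30. Of 36 listed genes with an adjusted p in the authors' deposited table, 2 pass, FYN (adjusted p 0.00304) and DPYSL2 (adjusted p 0.00584), against 1.28% of all genes with one. Among receptor partners, 5 of 14 were tested and all 5 had lower fitted means, as had 6292 of the 12113 genes tested, while KDR, the main VEGF receptor of endothelium, was at 0 in all 4 libraries.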

How the data were processed

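The authors deposited estimated counts under kallisto's column names, per the file headers, for 20322 genes. The submitters' processing notes list kallisto 0.46.2, HISAT2 2.1.0, fastp 0.21, DESeq and cutadapt 3.5 but no role for any. No coordinates are printed, since labels and headers name no genome build. Linkers carried molecular identifiers, per the labels' protocols, and whether duplicates were removed is not given. RNA was fragmented to short pieces before ligation, per the labels' protocols, so reads of similar paralogs may be split. Rows of 2 more sample names, without a matching label, were not analysed here. A second deposited table holds the authors' own log2 fold changes, errors and p-values, and does not say whether the fold changes were shrunk. Some are far smaller than by DESeq2 on the counts used here, at similar p. For IGF2BP1 the log2 fold change is 0.0972 there (unadjusted p 0.0141) and 1.69 by DESeq2 (unadjusted p 0.0122), while PLXND1 has 3.11 and 3.24. Deposited fold changes are therefore not on the scale of the edgeR values.

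Counts, whole as deposited, were tested over 12113 genes with edgeR 4.0.16 in R 4.3.3 (TMM scaling, default filter, quasi-likelihood F test, Benjamini-Hochberg adjustment over all genes tested, threshold 0.05). SE is the log2 fold change over the root of F, and intervals use edgeR's moderated degrees of freedom. With 2 against 2 libraries an exact two-sided permutation test cannot go below 0.333. TPM was computed from counts and deposited effective lengths and orders genes within libraries. Each gene is listed with a single transcript, so the TPM order rests on the length of that transcript. It is not corrected for composition, and 1 gene, ARSI, took 8.01% to 17.8% of a library. A count of 0 allows 3 counts, or 0.285 to 0.328 CPM, for counting error only. Alternatives were limma-voom (limma 3.58.1), DESeq2 1.42.0, a replicate block, different filters and scalings, and leaving out each library, on the same 12113 genes except where the filter changed. DESeq2 without each library for PLXND1, and edgeR without each library for 6 pathway genes, were added after the data were seen. A group left with a single library is then assumed to vary like the other group. The edgeR steps were tested on simulated counts. Replicate libraries differed by more than counting noise (chi-square per degree of freedom 45.1 for null and 16.0 for IMP1-OE). All 31 members matched a gene name table. Every member is named, full statistics go to the 5 tested members with the smallest p, and listed pathway genes are named at an unadjusted p under 0.05, with GIPC1. KDR, ITGB1 and the single markers were named after their values were seen. Members and lists were chosen with earlier results of these data known.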

Additional observations from a re-analysis of the deposited data

How the results depend on the processing

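Across all genes edgeR called 0 at an adjusted p under 0.05 (526 higher and 707 lower at an unadjusted p under 0.05), against 22 with no low-count filter, 168 with DESeq2, 1 with limma-voom and 15 with the replicate block, and 0 to 783 when a library was left out (783 without null replicate 1, 48 without null replicate 2, 0 without either IMP1-OE library). Members at an unadjusted p under 0.05 numbered 2, and 4 with no filter, with DESeq2 or with the replicate block, and 1 to 8 with a library left out (8 without null replicate 1, 5 without null replicate 2, 1 without either IMP1-OE library). Pathway genes numbered 6, and 3 to 14 with a library left out. The cause of these moves was not tested. DESeq2, limma-voom and the replicate block used the same libraries and genes with another model, and having no filter added genes. Leaving out a library left 1 in a group, whose spread was then taken from the other group. The log2 fold change of PLXND1 passed with no filter (3.23) and with DESeq2 (3.24), and ran from 2.65 to 4.28 with a library left out. By DESeq2, it also ran from 2.65 to 4.28 with a library left out. With the replicate block its adjusted p was 0.0510 (log2 fold change 3.41). The replicate numbers pair no samples by label, and deviations of same-numbered libraries had a correlation of 0.13 over genes.

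Of the 21 tested members, 12 kept their direction under all alternatives run and 9 did not. SEMA4G was at 0.0514 with library totals only. With a library left out, log2 fold changes ran from -1.001 to 0.29 for PLXNA1, -0.60 to 0.35 for PLXNB1, -0.75 to 1.94 for SEMA3E, -0.17 to 0.23 for SEMA4A, -0.0525 to 0.15 for SEMA4B, -0.27 to 0.44 for SEMA4F, -0.20 to 0.16 for SEMA4G, -1.37 to 1.52 for SEMA6B and -0.13 to 2.26 for SEMA7A. The cause was not tested. SEMA3B kept its lower level, from -0.81 to -0.49 with a library left out. Counts were low for SEMA4F, SEMA6B and SEMA7A (at most 25), SEMA4A (at most 29) and the 10 untested members (at most 9). The part of low counts in the changes of direction was not tested.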
